A study of Mus musculus with 6 samples.

Results

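The 29 genes described here encode enzymes and carriers of fatty acid oxidation, without the trifunctional protein, and were taken by name from the 36564 genes with a value in every heart library of the series. They cover the carnitine shuttle (5 genes), removal of malonyl-CoA (1), acyl-CoA dehydrogenases of straight (7) and branched chains (2), hydration, the second oxidation and thiolysis (3), handling of double bonds (4), electron transfer (3), peroxisomal steps (3) and 1 thioesterase. Messenger RNA of hearts from 32-week-old mice had been sequenced in 3 ApoE-/- Timp3-/- mice (libraries 4, 5 and 6, below the double mutants) and in 3 ApoE-/- littermate controls (libraries 1, 2 and 3). All 6 mice lacked apolipoprotein E, a ligand for lipoprotein uptake whose loss gives high blood cholesterol and atherosclerosis, so no library shows a heart with ApoE. The double mutants also lacked tissue inhibitor of metalloproteinases 3 (Timp3), a secreted inhibitor of proteases that cut matrix and cell-surface proteins. The title of the series places heart metabolism among its questions.

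The heart draws most of its energy from fatty acids. Activated long chains enter mitochondria bound to carnitine, and malonyl-CoA holds back the first enzyme of that entry. Inside, each round of beta-oxidation shortens the chain through an acyl-CoA dehydrogenase, a hydratase, a hydroxyacyl-CoA dehydrogenase and a thiolase, with dehydrogenases and later enzymes that differ in the chain length they prefer. The trifunctional protein (Hadha and Hadhb) carries out the last 3 of these steps for long chains, electrons leave the dehydrogenases through the electron transfer flavoprotein, and peroxisomes shorten chains by a related route of their own.

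The acyl-CoA dehydrogenases of straight chains are compared by chain length below, and the 250 bases before the start of 4 of them are shown for that reason (RefSeq, GRCm38.p6, all on the minus strand, 5′ to 3′). They lie at chr11:70015429-70015678 for Acadvl (very long chains), chr1:66863310-66863559 for Acadl (long chains), chr3:153944644-153944893 for Acadm (medium chains) and chr5:115119347-115119596 for Acads (short chains). Capitals mark AGGTCA or its reverse complement TGACCT, the core that estrogen-related receptors and peroxisome proliferator-activated receptors recognise.
Acadvl: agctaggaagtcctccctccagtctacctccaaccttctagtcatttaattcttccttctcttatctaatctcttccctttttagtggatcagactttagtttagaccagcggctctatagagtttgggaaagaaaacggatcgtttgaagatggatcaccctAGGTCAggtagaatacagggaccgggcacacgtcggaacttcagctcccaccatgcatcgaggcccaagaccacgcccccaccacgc
Acadl: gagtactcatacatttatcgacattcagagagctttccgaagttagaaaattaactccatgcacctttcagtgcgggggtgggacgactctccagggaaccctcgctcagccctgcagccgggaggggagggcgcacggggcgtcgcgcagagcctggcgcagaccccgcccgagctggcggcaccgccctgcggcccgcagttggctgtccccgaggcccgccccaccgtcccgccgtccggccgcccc
Acadm: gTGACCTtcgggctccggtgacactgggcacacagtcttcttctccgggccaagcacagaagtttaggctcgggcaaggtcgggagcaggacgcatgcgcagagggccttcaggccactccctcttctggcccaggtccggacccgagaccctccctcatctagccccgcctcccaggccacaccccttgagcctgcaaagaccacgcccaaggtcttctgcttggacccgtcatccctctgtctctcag
Acads: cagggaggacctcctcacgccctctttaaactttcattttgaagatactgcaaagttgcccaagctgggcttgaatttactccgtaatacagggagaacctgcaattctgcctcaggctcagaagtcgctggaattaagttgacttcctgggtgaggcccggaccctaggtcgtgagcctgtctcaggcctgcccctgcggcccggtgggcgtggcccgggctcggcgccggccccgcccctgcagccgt
The motif begins 87 bases before the start of Acadvl and 249 bases before that of Acadm, and neither Acadl nor Acads holds it in this window. For the counts, each window searched held 250 bases before the start and 50 bases after it, more than is printed above. Such a RefSeq window was found for 22 of the 29 members. Of these, 4 (Acadvl, Acadm, Cpt1a and Echs1) held AGGTCA on either strand, against 16.3% of 32851 such windows. The longer estrogen-related receptor motif TNAAGGTCA was in 0 of the 22 member windows, against 1.28% of all windows, and the DR1 motif, a tandem pair of such cores, was in 0 of 22, against 0.381%. Both were searched on either strand, and each can overlap AGGTCA. These matches describe the letters alone.

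Levels are given as FPKM, the fragments that mapped to a transcript divided by its length and by the mapped fragments of its library, summed over the transcripts of a gene. This allows levels to be set side by side between genes. They were scaled between libraries, and differences are given as double mutants minus controls on the log2(scaled FPKM + 1) scale. Coverage added up to 683 to 910 aligned megabases in the double mutants and 654 to 1339 in the controls. Timp3 averaged 26.8 ± 6.13 scaled FPKM in double mutants and 40.6 ± 3.62 in controls (SD, n = 3 each), and its groups did not overlap (limma adjusted p = 0.29; exact two-sided permutation p = 0.1, the smallest that 3 against 3 libraries allow). The labels do not say which part of Timp3 is deleted, so its remaining RNA does not check the genotype. Cardiomyocyte markers were abundant in every library, with a summed level of 19946 to 25554 scaled FPKM in double mutants and 16071 to 21012 in controls.

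Of the 29 members, 28 passed the filter of a mean FPKM of at least 1, and Acad10, an acyl-CoA dehydrogenase relative, was listed at 0 in all 6 libraries. Levels ran from 570 scaled FPKM for Acadl, averaged over the 6 libraries, to 2.59 for Ehhadh. Behind Acadl came Ech1 with 321, Acadvl with 234, Etfb with 219 and Acadm with 179 scaled FPKM. The 21 most abundant members ranked at or above percentile 91.5 of the 11383 genes tested, and the 3 peroxisomal genes, Acad9 and Cpt1a were the 5 least abundant.

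No member differed between genotypes after adjustment over all genes tested. Adjusted p was under 0.05 for 0 of 28 members and for 5 of 11383 genes, or 0.0439% (limma, Benjamini-Hochberg), and the smallest adjusted p of a member was 0.30. Before adjustment, limma gave p under 0.05 to 6 members with higher levels in double mutants, or 21.4%, against 6.95% of all genes tested. They were Mlycd, Decr1, Acadl, Eci2, Hadh and Acadvl. It gave such a p to 0 members with lower levels, against 5.23%. In 11 members, or 39.3%, every double mutant lay above every control, against 9.99% of all genes, and in 0 members every double mutant lay below every control, against 9.22%. Most members are abundant. A fit of the 5720 genes with a mean FPKM of at least 5, which include 27 members, also took its scaling between libraries from those genes alone. In it 5 members were higher at an unadjusted p under 0.05 (limma), against 8.88% of genes, and 8 stood wholly above, against 12.2%. The member left out, Ehhadh, was in neither count before, and the difference of Acadl, for example, moved from 0.47 to 0.42. In the fit of all 11383 genes the median difference of the members was 0.15, against -0.01 over those genes. There, 21 of 28 members lay above 0, against 48.8% of all genes.

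These counts moved with the scaling between libraries. With quantile normalization the median of the members was 0.02, and groups without overlap were 2 members higher and 2 lower, against 9.39% and 10% of all genes. With FPKM scaled to a fixed total the median was -0.03, while that of all genes was -0.16, and groups without overlap were 2 members higher and 3 lower, against 4.01% and 22%. Cpt1b, Crat, Acadm, Echs1, Ech1, Etfa and Etfdh lay below 0 under both, between -0.14 and -0.02, and Acadsb and Acaa1a under the second. The 6 members with p under 0.05 kept a difference above 0 under each of the 18 alternatives tried. These reuse the libraries that picked the 6, so the kept sign is no separate support. Acaa2, Eci1, Etfb and Slc25a20 also stayed above 0 throughout, and Acads, Acad11 and Acot13 below 0. With quantile normalization the unadjusted p was 0.20 for Hadh, 0.19 for Eci2 and 0.14 for Decr1 (limma). The smallest adjusted p of any member under any alternative was 0.12 (limma).

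**Figure D1:**
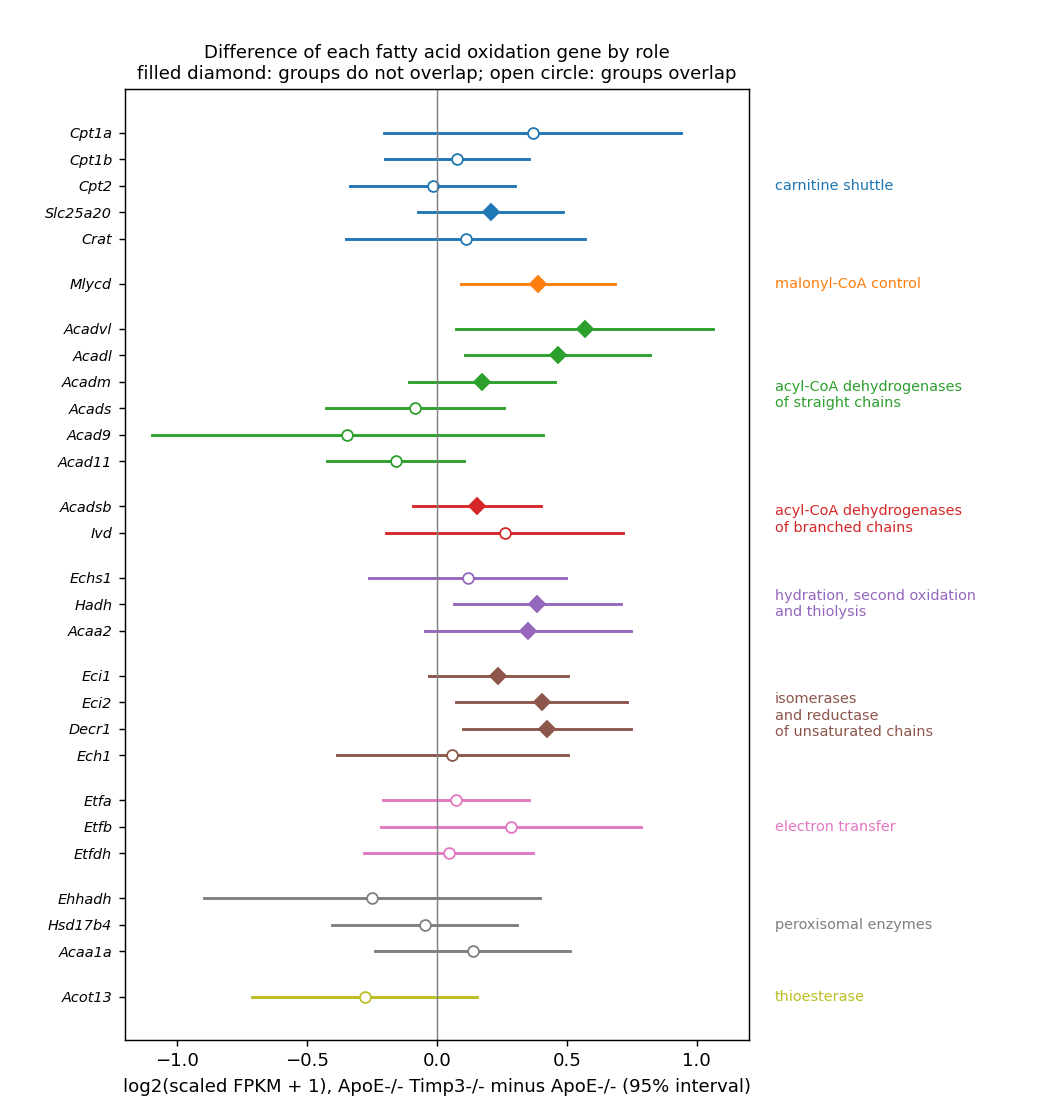
Difference of each of the 28 tested members (log2 scale, double mutants minus controls, horizontal axis) with its 95% interval, by role. Filled diamonds mark the 11 members in which every double mutant lay above every control, the largest values being those of Acadvl (0.57) and Acadl (0.47); with quantile normalization 2 members had such groups above and 2 below.

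The carnitine shuttle had a median difference of 0.11 over its 5 genes, with 4 above 0 and 1 below, and none had an unadjusted p under 0.05; Cpt1b and Crat also lay below 0 with quantile normalization. Carnitine acetyltransferase (Crat), which exchanges acetyl and other short groups between coenzyme A and carnitine, was its most abundant gene. It had 118, 115 and 129 scaled FPKM in double mutant libraries 4, 5 and 6, against 113, 85.7 and 143 in control libraries 1, 2 and 3. The controls enclosed the double mutants, but 42.7% of the value of library 3 came from assembled transcripts. The difference of 0.11 was 0.36 with reference transcripts alone and 0.26 with aligned bases, where every double mutant lay above every control (limma adjusted p = 0.52 and 0.45). The carnitine-acylcarnitine translocase Slc25a20, which carries acylcarnitine across the inner membrane, had 45.7, 39.2 and 42.5 scaled FPKM in double mutants, against 39.1, 36.2 and 34.5 in controls. Its groups nearly touched, and the difference of 0.21 ± 0.12 (SE) had an adjusted p of 0.55 (limma). Cpt1b, the muscle form of the malonyl-CoA-sensitive entry enzyme, averaged 91.4 ± 5.61 scaled FPKM in double mutants and 86.5 ± 4.96 in controls (SD, n = 3 each). Cpt2, which hands the chain back to coenzyme A inside the mitochondrion, averaged 41.2 ± 6.01 scaled FPKM in double mutants and 41.4 ± 0.772 in controls. The 95% interval of its difference ran from -0.33 to 0.30. Cpt1a, the form that dominates in liver, averaged 8.94 ± 2.15 scaled FPKM in double mutants and 6.77 ± 2.18 in controls. Its difference of 0.37 turned to -0.29 when transcripts assembled from the reads were left out, which held 55.4% to 72.6% of its FPKM in double mutants and 36.1% to 46.9% in controls. With aligned bases the Cpt1a difference was 0.54, with overlap (limma adjusted p = 0.45). Its unadjusted p was under 0.05 in 2 alternatives, library weights and without library 1 (limma adjusted p = 0.17 and 0.46).

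Malonyl-CoA decarboxylase (Mlycd, NCBIM37 chr8:121918778-121935002), which removes the inhibitor of Cpt1, had the smallest adjusted p of the members. Its level was 29.0, 26.4 and 23.6 scaled FPKM in double mutant libraries 4, 5 and 6, against 18.2, 20.9 and 20.4 in control libraries 1, 2 and 3. Every double mutant lay above every control. The difference was 0.39 ± 0.13 (SE; limma adjusted p = 0.30). Its main transcript ENSMUST00000098367 had 22.7, 19.5 and 18.1 scaled FPKM in double mutants, against 18.2, 15.8 and 16.1 in controls, and these overlapped. The shorter transcript ENSMUST00000164602 had 6.28, 6.82 and 5.54 scaled FPKM in double mutants, against 4.31 in control library 3, and was listed at 0 in control libraries 1 and 2.

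Among the acyl-CoA dehydrogenases of straight chains, the difference was 0.57 for Acadvl, 0.47 for Acadl, 0.18 for Acadm and -0.08 for Acads. For these genes alone, this is the order from very long to short chains. Acad11 (-0.16) and Acad9 (-0.34), tested in the same role, lay below 0, and the median of the role was 0.05. With quantile normalization and a fixed total Acadm was -0.02 in each, and Acadvl and Acadl stayed above 0. Acadl (NCBIM37 chr1:66877413-66909851) had 755, 657 and 576 scaled FPKM in double mutant libraries 4, 5 and 6, against 439, 486 and 508 in control libraries 1, 2 and 3. It averaged 663 ± 89.7 in double mutants and 478 ± 35.6 in controls (SD, n = 3 each), without overlap (limma adjusted p = 0.30). Acadvl (NCBIM37 chr11:69823685-69828913) had 368, 265 and 212 scaled FPKM in double mutants, against 192, 169 and 195 in controls. The lowest double mutant was close to the highest control, and library 4 stood far above the rest (difference 0.57 ± 0.21 SE, limma adjusted p = 0.36). Without library 4 the difference was 0.36 for Acadvl and 0.37 for Acadl, so the order of these 2 genes rested on that library. Acadm had 204, 185 and 180 scaled FPKM in double mutants, against 169, 160 and 174 in controls, a narrow gap between groups with a difference of 0.18 ± 0.12 (limma adjusted p = 0.62). Acads averaged 43.0 ± 5.89 scaled FPKM in double mutants and 45.5 ± 4.70 in controls, and the 95% interval of its difference ran from -0.43 to 0.26.

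A ratio of 2 genes within a library does not depend on a single scaling factor for that library, although quantile normalization can change it. The chain-length classes were therefore also set against Acads, whose own difference lay below 0 (-0.08). Acadl over Acads was 15.2, 17.1 and 14.1 in double mutant libraries 4, 5 and 6, against 10.9, 9.92 and 10.8 in control libraries 1, 2 and 3. The ratio of Acadvl to Acads was 7.42, 6.88 and 5.21 in double mutants, against 4.78, 3.45 and 4.13 in controls. Both ratios were higher in every double mutant than in every control. For Acadm over Acads the values were 4.11, 4.81 and 4.42 in double mutants, against 4.20, 3.27 and 3.69 in controls, and the groups overlapped. Computed from aligned bases, Acadl over Acads was 15.3, 18.7 and 15.6 in double mutants, against 12.4, 11.1 and 11.9 in controls, and again did not overlap. No p is given for these ratios, since the pairs were chosen with earlier results known. The ratios are not independent of the differences of the single genes given above.

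Part of these differences lay in transcripts assembled from the reads of a single library. They held 25.4% and 30.2% of the Acadvl FPKM in double mutant libraries 4 and 5 and 29.5% of the Acadl FPKM in library 4, against 0% in every control. With reference transcripts alone the differences were 0.24 for Acadvl, 0.28 for Acadl, 0.16 for Acadm and -0.10 for Acads. With aligned bases divided by transcript length they were 0.40, 0.42, 0.19 and -0.06 in the same order of genes. Acadl stood a little above Acadvl in both of these, and the long-chain pair stayed above Acadm and Acads. The single reference transcript of Acadl that was expressed, ENSMUST00000027153, had 532, 657 and 576 scaled FPKM in double mutants, against 439, 486 and 508 in controls, without overlap.

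**Figure D2:**
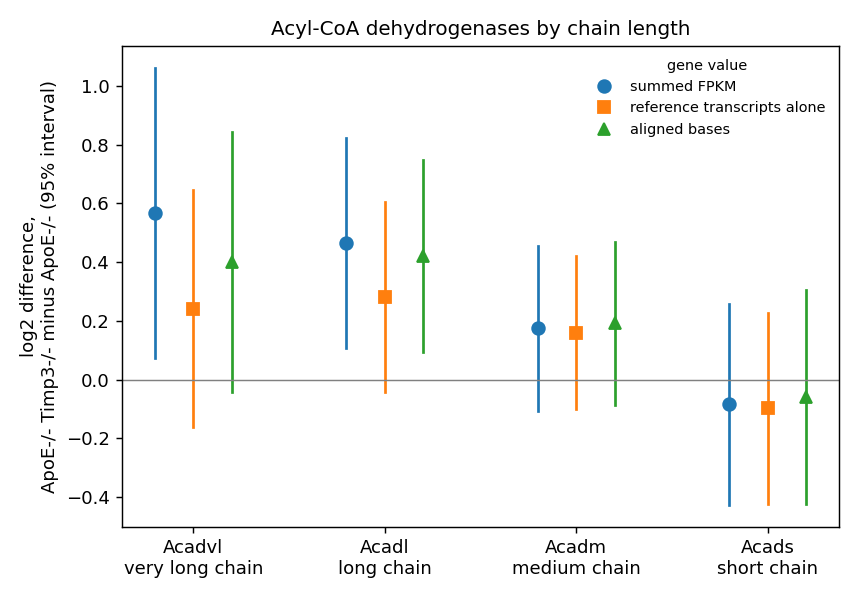
Log2 difference, double mutants minus controls, of the 4 dehydrogenases from very long to short chains (horizontal axis), with 95% intervals, for summed FPKM, reference transcripts alone and aligned bases. Acadvl and Acadl stand above Acadm and Acads with each gene value, and the intervals of neighbouring genes overlap.

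The other straight-chain relatives had lower means in double mutants. Acad11 averaged 33.0 ± 1.56 scaled FPKM in double mutants and 37.0 ± 2.25 in controls. Acad9, which also serves in the assembly of respiratory complex I, averaged 9.59 ± 4.36 scaled FPKM in double mutants and 11.5 ± 0.387 in controls. Its difference of -0.34 rested on double mutant library 6, at 4.65 scaled FPKM against 11.2 to 12.9 in the other libraries, and was 0.06 without that library and 0.07 with aligned bases.

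The 2 dehydrogenases of branched chains also serve amino acid breakdown. Acadsb, which acts on a product of isoleucine, had 29.6, 28.4 and 29.6 scaled FPKM in double mutants, against 27.1, 25.1 and 26.2 in controls. The groups were tight and just apart, with a difference of 0.15 ± 0.10 (SE; limma adjusted p = 0.61). Isovaleryl-CoA dehydrogenase (Ivd), of the leucine route, had 131, 93.3 and 92.2 scaled FPKM in double mutants, against 72.8, 102 and 87.7 in controls. The groups overlapped, and 40.0% of the value of library 4 came from assembled transcripts. The Ivd difference of 0.26 was 0.09 without library 4 and 0.14 without library 1. It was 0.0025 with reference transcripts alone, with overlap, and 0.20 with aligned bases, without overlap (limma adjusted p = 0.998 and 0.55).

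All 3 genes of the later steps of the round lay above 0, with a median difference of 0.35, although Echs1 lay below 0 with quantile normalization and a fixed total. Hadh (NCBIM37 chr3:130936337-130975019), the hydroxyacyl-CoA dehydrogenase of medium and short chains, had 107, 92.3 and 121 scaled FPKM in double mutants, against 84.7, 79.9 and 77.8 in controls. The lowest double mutant exceeded the highest control (difference 0.39 ± 0.14 SE, limma adjusted p = 0.35). The mitochondrial thiolase Acaa2 had 190, 154 and 156 scaled FPKM in double mutants, against 147, 107 and 140 in controls. Its groups did not overlap, and control library 2 was low (difference 0.35 ± 0.17 SE, limma adjusted p = 0.47; 0.21 without library 2). Echs1, the hydratase of short chains, averaged 117 ± 23.3 scaled FPKM in double mutants and 107 ± 4.56 in controls, with 144 in library 4, and its difference of 0.12 was -0.04 without that library.

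Double bonds of unsaturated fatty acids are moved or reduced by 4 further enzymes, whose median difference was 0.32 with all 4 above 0, although Ech1 lay below 0 with no further scaling, quantile normalization and a fixed total. Decr1 (NCBIM37 chr4:15844387-15872654), the dienoyl-CoA reductase, had 74.0, 87.9 and 71.0 scaled FPKM in double mutants, against 59.7, 51.5 and 61.5 in controls. Its difference was 0.42 ± 0.14 (SE; limma adjusted p = 0.30), without overlap, and 35.1% of the value of library 5 was assembled. With reference transcripts alone the Decr1 difference was 0.20 and the groups overlapped. The enoyl-CoA isomerase Eci2 (NCBIM37 chr13:35069617-35118963) had 46.6, 52.8 and 51.4 scaled FPKM in double mutants, against 40.2, 32.0 and 41.6 in controls. Every double mutant lay above every control (difference 0.40 ± 0.14 SE, limma adjusted p = 0.34). Reads of Eci2 and its close copy Eci3 may have been divided by the counting. Eci1, a mitochondrial enoyl-CoA isomerase, had 87.4, 77.5 and 81.2 scaled FPKM in double mutants, against 68.7, 67.3 and 72.3 in controls, also without overlap (difference 0.24 ± 0.11 SE, limma adjusted p = 0.47). Ech1, a dienoyl-CoA isomerase, had 420, 267 and 304 scaled FPKM in double mutants, against 305, 292 and 338 in controls. Library 4 was highest and library 5 lowest of all, so the double mutants enclosed the controls.

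**Figure D3:**
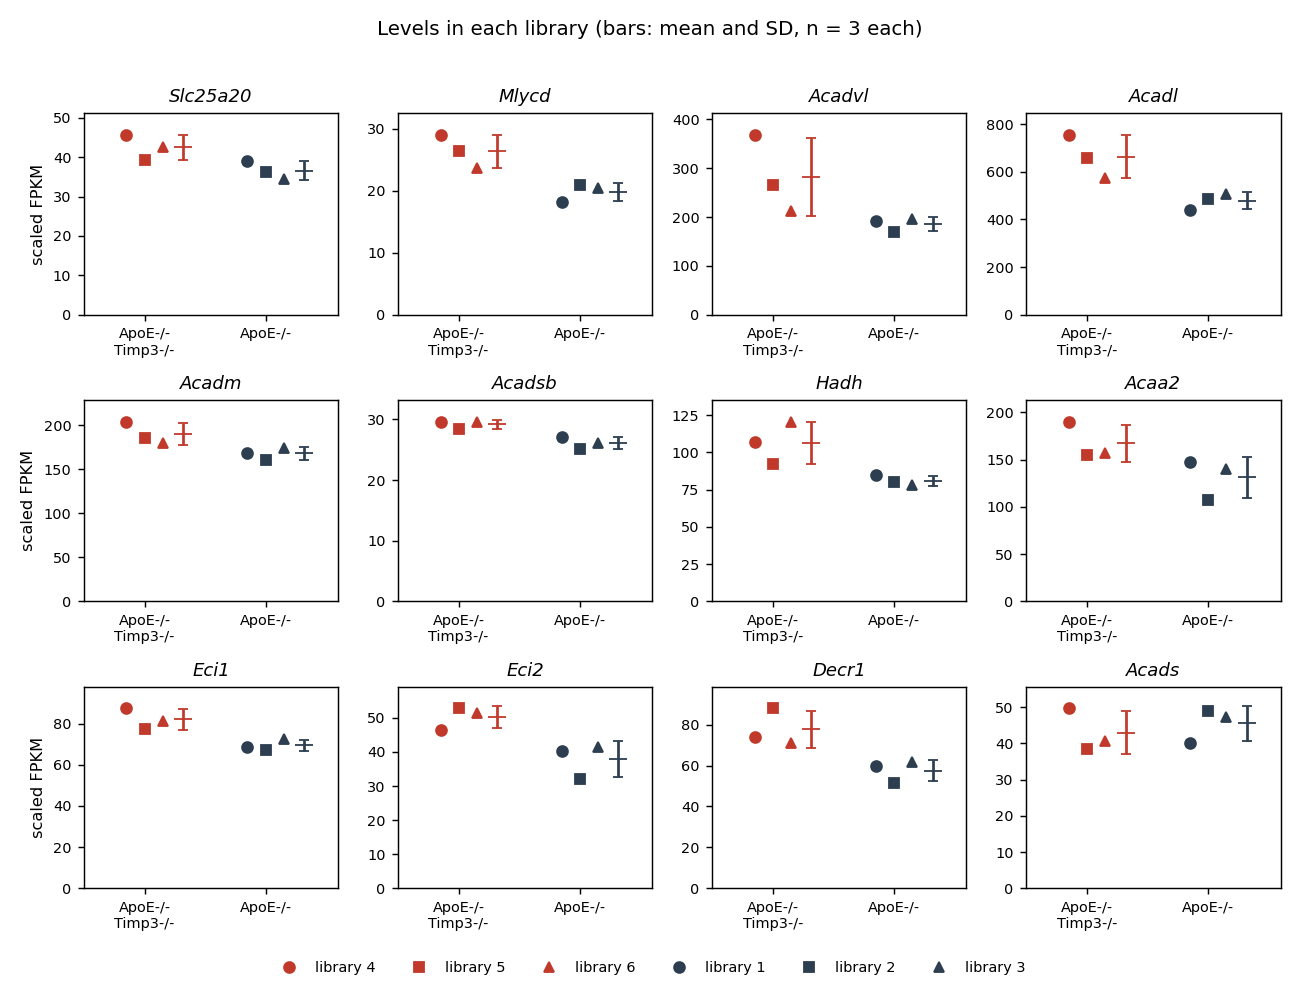
Scaled FPKM (vertical axes from 0) of the 11 members whose groups did not overlap, and of Acads, in each double mutant library (left, red) and control library (right, dark), with the mean and SD of each group (n = 3). Library 4 is the highest of all in Acadvl (368) and Acadl (755), whereas Acads overlaps between groups.

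The 3 genes of electron transfer overlapped between groups with summed FPKM, with a median difference of 0.07, and Etfa and Etfdh lay below 0 with no further scaling, quantile normalization and a fixed total. Etfb, the beta subunit of the electron transfer flavoprotein, had 331, 196 and 205 scaled FPKM in double mutants, against 188, 202 and 193 in controls. Its difference of 0.29 was 0.04 without library 4, whose value was far above the other 5. Etfa, the alpha subunit, averaged 151 ± 7.45 scaled FPKM in double mutants and 143 ± 9.25 in controls. Its assembled share was 42.9% in control library 1 and 0% elsewhere. The Etfa difference of 0.07 was 0.32 with reference transcripts alone, with overlap, and 0.20 with aligned bases, without overlap (limma adjusted p = 0.69 and 0.53), and the median of the 3 genes was 0.27 and 0.20. Etfdh, which passes the electrons to ubiquinone, averaged 100.5 ± 2.14 scaled FPKM in double mutants and 97.9 ± 13.4 in controls, and its interval ran from -0.28 to 0.37.

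The peroxisomal genes had a median difference of -0.05, with 1 of 3 above 0. With reference transcripts alone their median was 0.01, with 2 of 3 above 0. Hsd17b4, the bifunctional enzyme of very long and branched chains, had 13.2, 14.4 and 13.0 scaled FPKM in double mutants, against 16.7, 11.5 and 14.4 in controls. The controls spread around the double mutants, and library 1 was highest. Ehhadh, the other bifunctional enzyme, had 1.51, 2.74 and 2.44 scaled FPKM in double mutants, against 4.64, 1.97 and 2.25 in controls, and its difference of -0.25 was 0.04 without control library 1. That library alone held the brown fat gene Ucp1 (27.1 scaled FPKM, at most 0.0396 elsewhere), and its Cidea was 21.8 against 5.76 to 8.40 in the others. Without library 1 the Hsd17b4 difference of -0.05 was 0.07. The 9 fat markers summed to 237 to 322 scaled FPKM in double mutants and 267 to 570 in controls, with 8 of 8 tested below 0, and the part of fat in these peroxisomal values was not tested. Acaa1a, the peroxisomal thiolase, averaged 12.0 ± 2.19 scaled FPKM in double mutants and 10.8 ± 1.43 in controls, and its reads may have been divided with the close copy Acaa1b. The mitochondrial thioesterase Acot13, which releases free fatty acid from coenzyme A, had 76.1, 74.0 and 66.9 scaled FPKM in double mutants, against 68.1, 109 and 91.1 in controls, with overlap. Its difference of -0.28 was -0.12 without library 2 and -0.46 without library 1, -0.44 with quantile normalization and -0.47 with a fixed total, and in these last 3 settings its unadjusted p was under 0.05 (limma adjusted p = 0.38, 0.28 and 0.22, between 0.22 and 0.82 over all alternatives).

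**Figure D4:**
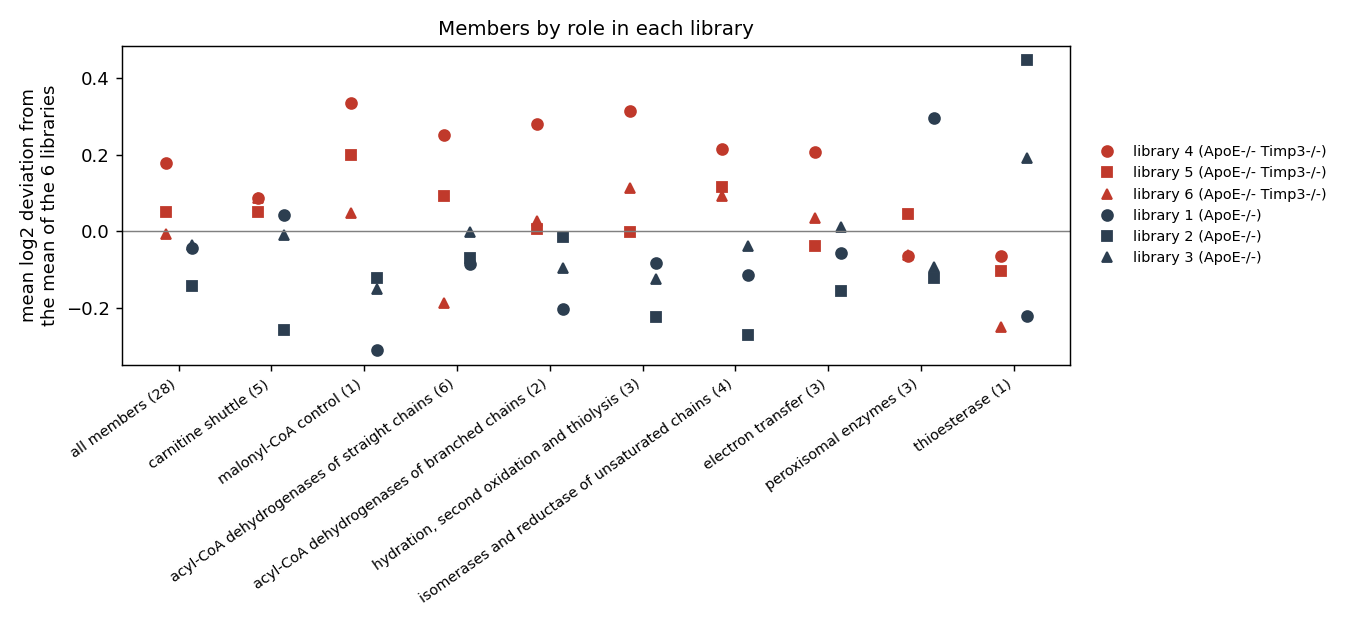
Mean log2 deviation of the members of each role (number in brackets) from the mean of the 6 libraries (vertical axis), for double mutants (red, left) and controls (dark, right). Library 4 is the highest over all members (0.18) and library 2 the lowest (-0.14); the peroxisomal enzymes peak in control library 1 (0.30).

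Single libraries also stood apart. Library 4 gave the highest value of 15 of the 28 members and library 2 the lowest of 13. The sum over the members was 3675, 3011 and 2950 scaled FPKM in double mutant libraries 4, 5 and 6, against 2640, 2601 and 2834 in control libraries 1, 2 and 3, and the groups did not overlap. Without library 4 the median difference of the members was 0.10. Without library 2 their count on the higher side at an unadjusted p under 0.05 was 2 in place of 6, against 6.72% of all genes, and without library 5 it was 2, against 5.11%.

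Levels of cell type markers differed between these pieces of heart, and in bulk tissue fewer cells of a type and less RNA per cell cannot be told apart. Cardiomyocyte markers lay above 0 in 9 of 10 genes, with a median difference of 0.15, beside 0.15 for the members. The 8 fibroblast markers all lay below 0, with a median of -0.49 and summed levels of 183 to 216 scaled FPKM in double mutants and 191 to 280 in controls. Endothelial markers were below 0 in 8 of 8, with sums of 157 to 201 in double mutants and 185 to 235 in controls. Red blood cell markers summed to 852 to 23527 scaled FPKM in double mutants and 208 to 882 in controls, with 5 of 5 tested above 0, and were highest in library 4. Of 8 skeletal muscle markers, 4 were tested and all 4 lay above 0, with a median of 0.53 and sums of 12.2 to 18.9 scaled FPKM in double mutants and 4.75 to 13.1 in controls. Smooth muscle and pericyte markers lay below 0 in 5 of 7, with a median of -0.34 and sums of 262 to 308 in double mutants and 259 to 373 in controls. Macrophage markers lay above 0 in 4 of 8, with a median of -0.03. Liver markers summed to 13.9 scaled FPKM in double mutant library 6 and to at most 1.08 in the other libraries. The part of cell content in the members' differences was not tested. Atrial markers lay above 0 in 7 of 7, with a median of 1.69 and sums of 190 to 1500 scaled FPKM in double mutants and 134 to 1512 in controls. The atrial genes Sln, Myl7 and Myl4, taken from these 7 markers, separated libraries 5, 6 and 1 (415 to 751 scaled FPKM together) from libraries 4, 2 and 3 (9.83 to 34.8). Dkk3 and Stard10 split the libraries in the same way. Nppa did not, with 797 in library 2, against 547 and 706 in libraries 5 and 1. Bmp10 was 0.409 in library 1, against 11.3 and 32.2 in libraries 5 and 6. Within libraries 5, 6 and 1 (atrial-rich) the members' median difference was 0.08, with 19 of 28 above 0, against 49.3% of all genes. Within libraries 4, 2 and 3 (atrial-poor) it was 0.30, with 24 of 28 above 0, against 48.8%. Acadl was 0.49 higher in double mutants within the atrial-rich libraries and 0.60 higher within the atrial-poor ones, and Mlycd 0.43 higher within the atrial-rich and 0.47 within the atrial-poor. Each of these sets a single library against a pair and has no test.

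The choice of gene value affected how many members stood apart. With reference transcripts alone, 3 members had an unadjusted p under 0.05 on the higher side, against 5.97% of genes, and 7 had groups without overlap, against 9.17%. With aligned bases the counts were 5, against 6.91%, and 14, against 10.1%. The 7 members that stood apart with all 3 gene values were Mlycd, Acadl, Acadm, Acadsb, Hadh, Acaa2 and Eci2. Mlycd, Hadh and Eci2 had p under 0.05 with all 3. The share of all genes that meets either joint rule was not computed, and the 3 gene values come from the same reads. With quantile normalization Hadh and Eci2 no longer had such a p (0.20 and 0.19, limma, unadjusted). Of 43 single transcripts of members tested, 2 had an unadjusted p under 0.05 on the higher side, against 5.12% of 12706 transcripts, and 0 on the lower side, against 3.15%. Some genes had their FPKM assigned to different transcripts in different libraries. For Ivd, ENSMUST00000028807 had 18.2 scaled FPKM in double mutant library 4 and 92.2 to 93.3 in the other double mutants, against 66.9 to 87.7 in controls, while ENSMUST00000152191 was above 0 in libraries 4 and 2 alone.

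Fatty acid oxidation genes outside the members were counted in the same way. Of 46 listed, 38 were tested, 23 lay above 0 with a median of 0.12, and none had an adjusted p under 0.05 (limma). Unadjusted p was under 0.05 for 3 on the higher side and 1 on the lower, against 6.95% and 5.23% of all genes. Groups without overlap were 5 higher and 4 lower, against 9.99% and 9.22% of all genes. The trifunctional subunit Hadha had 275, 231 and 236 scaled FPKM in double mutants, against 209, 175 and 213 in controls, without overlap (difference 0.31 ± 0.14 SE, limma adjusted p = 0.44). Its partner Hadhb had 241, 182 and 326 scaled FPKM in double mutants, against 120, 179 and 238 in controls, with overlap and a wide spread.

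Of 18 peroxisomal genes outside the members, 13 were tested and 8 lay above 0, with a median difference of 0.10. Groups without overlap were 2 higher and 1 lower, against 9.99% and 9.22% of all genes. Among these genes, Scp2 (sterol carrier protein and thiolase) had 42.9, 38.8 and 44.9 scaled FPKM in double mutants, against 30.1, 32.4 and 38.4 in controls (difference 0.32, limma adjusted p = 0.40). For Amacr, a racemase of branched chains, the mean was 4.55 ± 0.322 scaled FPKM in double mutants and 5.51 ± 0.844 in controls. The thioesterases Acot2 (mitochondrial) and Acot1 (cytosolic), close copies whose reads may be divided, had differences of 0.40 and 0.90 with limma adjusted p of 0.35 each. Acot2 had 16.3, 15.5 and 15.8 scaled FPKM in double mutants, against 13.9, 9.76 and 12.2 in controls, and Acot1 had 9.70, 9.996 and 8.52 in double mutants, against 8.59, 2.68 and 3.92 in controls. Them4 averaged 2.31 ± 0.144 scaled FPKM in double mutants and 2.65 ± 0.0605 in controls, with every double mutant below every control.

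On the malonyl-CoA side, Acacb, which makes the malonyl-CoA that Mlycd removes, had 40.0, 30.9 and 29.5 scaled FPKM in double mutants, against 26.8, 25.0 and 26.4 in controls, without overlap (difference 0.34, limma adjusted p = 0.41). Acacb and Mlycd both had higher values in every double mutant than in every control. Acaca, another maker of malonyl-CoA, was low and overlapped (difference -0.34, limma adjusted p = 0.81). It had 0.593, 1.89 and 0.756 scaled FPKM in double mutants, against 4.32, 0.944 and 0.592 in controls. The mitochondrial carrier Slc25a29 averaged 1.56 ± 0.251 scaled FPKM in double mutants and 2.30 ± 0.343 in controls. Every double mutant lay below every control for Slc25a29 (difference -0.36, limma adjusted p = 0.38). The carnitine importer Slc22a5 averaged 7.80 ± 0.433 scaled FPKM in double mutants and 6.75 ± 2.02 in controls. Among 12 further genes of acyl-CoA metabolism, Mut, which leads the products of odd chains into the citric acid cycle, averaged 21.7 ± 3.63 scaled FPKM in double mutants and 16.1 ± 3.35 in controls. Echdc1 averaged 6.28 ± 0.0589 scaled FPKM in double mutants and 8.37 ± 1.96 in controls, with every double mutant below every control. Nudt7 had 35.6, 34.3 and 36.8 scaled FPKM in double mutants, against 34.3, 30.3 and 29.5 in controls.

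The rest of mitochondrial energy production gave smaller medians, but most of its listed genes also lay above 0, as did 21 of 28 members. Genes of the respiratory chain and ATP synthase had a median difference of 0.07 over 24 tested, and 17 lay above 0, against 48.8% of all genes. In 4 of them every double mutant lay above every control, against 9.99%, and in 0 below, against 9.22%. Limma gave an unadjusted p under 0.05 on the higher side to 2, against 6.95%. These were Cox7c, with 73.4, 65.1 and 68.5 scaled FPKM in double mutants, against 46.5, 54.0 and 50.7 in controls (difference 0.45, limma adjusted p = 0.26), and Ndufs1, with a difference of 0.36 (adjusted p = 0.38). The 14 citric acid cycle genes had a median of 0.11, and 11 of them lay above 0. Groups without overlap were 4 higher and 1 lower, against 9.99% and 9.22% of all genes. Fh1 averaged 183 ± 8.91 scaled FPKM in double mutants and 146 ± 13.8 in controls, and Idh2 averaged 462 ± 81.5 in double mutants and 376 ± 43.0 in controls. Whether the members differ from these lists was not tested.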

How the data were processed

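Each library had been deposited as a transcript file made with Cufflinks, with an FPKM and a coverage value for every transcript, as its attributes name them. The submitters' processing notes also name TopHat, Bowtie and the build NCBIM37, without versions. Settings, read length and use of strand were not given in the sources used here. A transcript of the reference was placed in a gene by its own ID (82348), by its gene ID (5266) or by an exon overlap of at least 50% (6228), and 828 were placed in none. Of transcripts assembled from the reads, 39150 of 70603 had at least 300 nt and 50% of exonic bases shared with a gene, and were added. FPKM were normalized within each library by the authors. The deposited files hold no read counts, and an FPKM of 0 can be a failed estimate. A gene took up 74.8% to 81.2% of aligned bases, and 193 genes that lacked a transcript in some file were left out.

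Genes entered with a mean FPKM of at least 1 and a longest transcript of 300 nt or more. Libraries were scaled by the median of ratios (factors 0.896 to 1.17). The log2 values, with a pseudocount of 1, were compared by limma 3.58.1 (R 4.3.3; two-sided, trend on intensity), and p was adjusted by Benjamini-Hochberg over all genes, at 0.05. Differences of low genes are understated on this scale. Intervals are limma's 95% intervals. Aligned bases are coverage times transcript length. The code was tested on simulated data. Alternatives changed 1 choice at a time: scaling, pseudocount, filter, gene value, trend, library weights and each library left out. The aligned bases and the atrial-rich and atrial-poor libraries were chosen after the data were seen. Read depth per gene is unknown, so no counting interval is given. Beyond the word littermate the labels are silent on how the mice were related, and p-values reflect only the spread between these 6 libraries.

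The members and lists were chosen with earlier results of these data known. Values in every library were to be given for members with an unadjusted p under 0.05, for members whose groups do not overlap and for the most abundant member of each role. Outside the members the trifunctional pair and the 3 genes of smallest p of each oxidation list, and 2 of each mitochondrial list, were named, and Acaca beside Acacb. A gene that this rule takes is not reported here. Coordinates of genes are from the files in NCBIM37, and symbols from a later annotation. Acta1, Hbb-b1, Hbb-b2 and Cox4i1 were not analysed here. Of the genes that overlap a member, Myd88 (67 bases shared with Acaa1a) was expressed, at 3.1 FPKM, and the others were listed at 0.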

Additional observations from a re-analysis of the deposited data

How the results depend on the processing

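Under each of 18 alternatives 0 of the tested members had an adjusted p under 0.05 (limma), as in the reported setting, where 6 had an unadjusted p under 0.05. The count of members higher at an unadjusted p under 0.05 was 1 with no further scaling, 3 with quantile normalization, 1 with a fixed total, 3 with reference transcripts alone and 1 with the strongest transcript alone, against 3.39%, 6.46%, 2.91%, 5.97% and 5.71% of all genes. The count lower was 1 with quantile normalization (Acot13) and 3 with a fixed total (Acot13, Acads and Acad11), against 5.98% and 13.8% of all genes. Members with every double mutant above every control numbered 4, 2, 2, 7 and 6 under those 5 settings, against 5.2%, 9.39%, 4.01%, 9.17% and 8.89%, and those below numbered 1 with no further scaling, 2 with quantile normalization and 3 with a fixed total, against 9.67%, 10% and 22%. The median of the members was 0.017 with quantile normalization and -0.035 with a fixed total, which moved the median of all genes to -0.16. Leaving out each library in turn gave 2 to 5 members higher, against 4.49% to 7.31% of all genes, and 0 to 1 lower at an unadjusted p under 0.05. It gave 11 to 13 members wholly above, against 13% to 17.3%, and 0 to 1 wholly below, against 12.5% to 16.6%, and a median of 0.10 to 0.21. With estimated library weights 102 genes passed over all genes, none of them a member, with a weight of 2.99 for library 3 and 0.35 for library 4.

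Single members turned sign as follows, and the cause was not tested. With no further scaling Ech1 was -0.014, Etfa -0.0010 and Etfdh -0.028. With quantile normalization Cpt1b was -0.10, Crat -0.10, Acadm -0.018, Echs1 -0.051, Ech1 -0.11, Etfa -0.099 and Etfdh -0.13. With a fixed total Cpt1b was -0.11, Crat -0.079, Acadm -0.016, Acadsb -0.030, Echs1 -0.072, Ech1 -0.13, Etfa -0.12, Etfdh -0.14 and Acaa1a -0.039. With reference transcripts alone Cpt1a was -0.29 and Hsd17b4 0.014, and with the strongest transcript alone Cpt1a was -0.29, Cpt2 0.077, Ivd -0.49 and Hsd17b4 0.0045. Library weights gave Crat -0.090, Ech1 -0.14 and Etfdh -0.043, and aligned bases gave Cpt2 0.079 and Acad9 0.074. With a library left out the differences ran from -0.43 to 0.037 for Ehhadh, -0.18 to 0.070 for Hsd17b4, -0.077 to 0.29 for Crat, -0.069 to 0.12 for Etfdh, -0.038 to 0.21 for Echs1, -0.13 to 0.20 for Ech1, -0.13 to 0.070 for Cpt2 and -0.59 to 0.059 for Acad9. No paired analysis was possible because the labels share no replicate number between the groups.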
